A study of Mus musculus with 2 samples.

Results

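The genes described here encode the proteins of the mitochondrial ribosome. They were taken as every row of the deposited count table whose symbol starts with Mrpl or Mrps, which gave 76 of 23337 rows: 47 named for the large subunit (Mrpl) and 29 for the small subunit (Mrps). RNA was measured in regulatory T (Treg) cells sorted from injured skeletal muscle. Treg cells are CD4 T cells that depend on the factor Foxp3 and hold other immune cells in check. The mice were 8-week-old males labelled Foxp3-IRES-GFP/C57BL/6, in which a green fluorescent reporter is placed behind Foxp3. In every mouse the leg muscles were injured with cardiotoxin, a venom component that destroys muscle fibres. One library came from muscles also given 0.3 ug of recombinant IL-33, a cytokine released by damaged tissue, and the other from muscles given PBS. Muscles were taken 4 days after injury and each library came from 5000 double-sorted Treg cells, whereas the number of animals behind each library is not given in the sources used here. With 1 library per treatment, there is no replicate check and no test, and "higher" and "lower" compare the 2 libraries. Paired values are given in the order IL-33, PBS. Every interval covers counting error only.

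Mitochondria carry their own ribosomes, which translate the few messages of the mitochondrial genome into core subunits of the respiratory chain and of ATP synthase. Their ribosomal RNAs are made inside the organelle, whereas every protein of the particle is encoded in the nucleus, made in the cytosol and imported. The small subunit reads the mRNA and the large subunit joins the amino acids. Many of the proteins have a relative in the bacterial ribosome, and the rest are found only in mitochondria. Activated T cells, Treg cells among them, depend on mitochondrial respiration, and inherited defects of several of these genes impair it in humans.

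The IL-33 library held 4080791 counts and the PBS library 1573707, so a single count equals 0.245 and 0.635 CPM (the count scaled to the library total, as counts per 1000000). All 8 fixed Treg markers were detected in both libraries, with summed levels of 10850 and 11364 CPM. Marker lists of other cells were lower, and not equal between the libraries. The 6 muscle fibre markers summed to 165 and 208 CPM, the highest of these lists, with 3 detected in each library and Ckm and Mb at 0 in both. The 5 fibroblast markers summed to 0 CPM against 66.1 CPM, with Col1a1 and Col1a2 at 0 in both. The 6 of 7 monocyte and macrophage markers present in the table summed to 20.6 and 41.3 CPM, with Cd68 at 0 in both. Dendritic cell markers summed to 14.7 and 19.7 CPM and neutrophil markers to 4.41 and 5.72 CPM. The remaining lists went the other way. The 4 B cell markers, all detected in both libraries, summed to 32.3 and 26.7 CPM. The 2 CD8 T cell markers summed to 21.6 and 13.3 CPM, with Cd8a at 0 in both. The part of these cells in the values below was not tested. In a sorted bulk sample, fewer cells of a type and less RNA per cell cannot be told apart.

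Mitochondrial ribosomal protein genes took nearly the same small share of the counts in both libraries, and their differences were spread about 0. Together they held 13770 counts in the IL-33 library, 0.337% of the total (Wilson 95% interval 0.332 to 0.343), and 5111 counts in the PBS library, 0.325% (0.316 to 0.334). All 76 genes had at least 1 count in each library. The median gene stood at 27.1 and 27.3 CPM. Of the 76, 73 reached 5 CPM in at least 1 library and were compared, which left out the large subunit genes Mrpl2 and Mrpl38 and the small subunit gene Mrps27. Their log2 folds, taken as IL-33 over PBS on CPM plus a pseudocount of 1, had a median of 0.04 and middle values (25th to 75th percentile) from -0.57 to 0.53, against a median of -0.08 over all 9005 compared genes. By another scaling, TMM, folds move up by up to 0.12, less for genes of few counts. A value below 0 by less than this can therefore change side, and one as near to 0 above it is too small to read as a difference. Of the 73, 37 lay above 0, where 45.6% of all compared genes did, and 36 below.

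At 2-fold or more, 10 of the 73 compared genes were higher in the IL-33 library, where 15.5% of all compared genes were, and 7 were lower, against 16.3%. The members' shares, 13.7% and 9.59%, are near or under those of all genes. With members under 20 counts in either library left out, 2 of 53 were higher and 3 lower. That cut falls mainly on genes low in the shallower PBS library, so it takes out higher genes more readily than lower ones. The shares of all genes under that cut were not computed. The larger differences lay among the thinly counted genes. None of the 21 members whose mean level reached 50 CPM differed by 2-fold, where 3.53% of the 3566 compared genes at that level were higher and 4.96% lower. Of the 28 members under a mean of 20 CPM, 7 were higher and 5 lower, and among the 3416 compared genes of that range 29.5% were higher and 27.2% lower. The counting interval of the CPM ratio lay above 1 for 22 members and below 1 for 20, which is 30.1% and 27.4% of those compared. The corresponding shares of all compared genes were 28.6% and 35.1%. Of the 73, 10 passed the 5 CPM floor in a single library, and a gene of that kind is bound to differ: 5 of these 10 were higher and 4 lower. Among the 63 that passed in both libraries, 5 were higher and 3 lower, with a median of 0.04. These are 7.94% and 4.76%, near or under the 7.71% and 10.5% of all 7239 genes that passed in both.

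**Figure D1:**
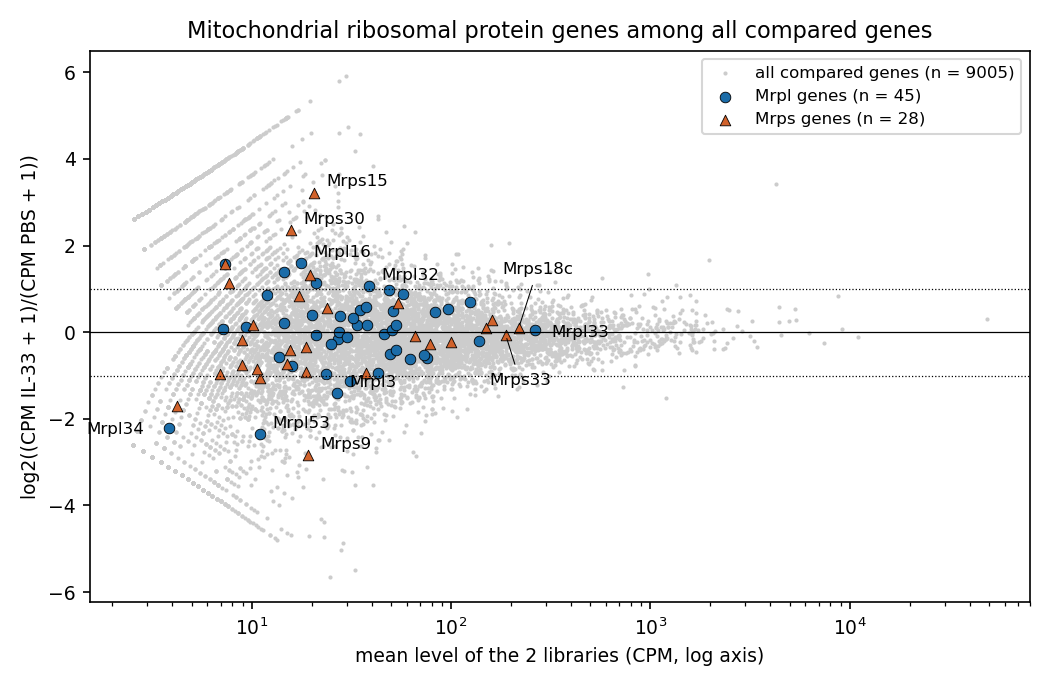
Log2 fold of IL-33 over PBS (CPM plus 1; vertical axis) against the mean level of the 2 libraries in CPM (log axis) for the 9005 compared genes (grey), 45 Mrpl genes (circles) and 28 Mrps genes (triangles); dotted lines mark 2-fold. The members spread about 0 among the other genes, and the spread narrows from Mrps15 and Mrps9 at about 20 CPM to Mrpl33 and Mrps18c above 200 CPM.

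Both subunits were at nearly equal summed levels in the 2 libraries. The 47 large subunit genes summed to 2042 against 1949 CPM, a ratio of 1.05 (95% counting interval 1.005 to 1.09). The 29 small subunit genes summed to 1332 and 1299 CPM, a ratio of 1.03 (0.975 to 1.08). Large subunit genes therefore took 60.5% (Wilson 59.7 to 61.3) of the members' counts in the IL-33 library and 60.0% (58.7 to 61.3) in the PBS library, a difference within the counting intervals. Gene by gene, the 45 compared large subunit genes had a median log2 fold of 0.06, with 5 higher and 4 lower at 2-fold, and the 28 small subunit genes a median of -0.13, with 5 higher and 3 lower. The 2 medians differed by 0.19, and the sign of that difference turned with the floor: with 20 CPM in place of 5, the small subunit median was 0.088 and the difference -0.035.

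**Figure D2:**
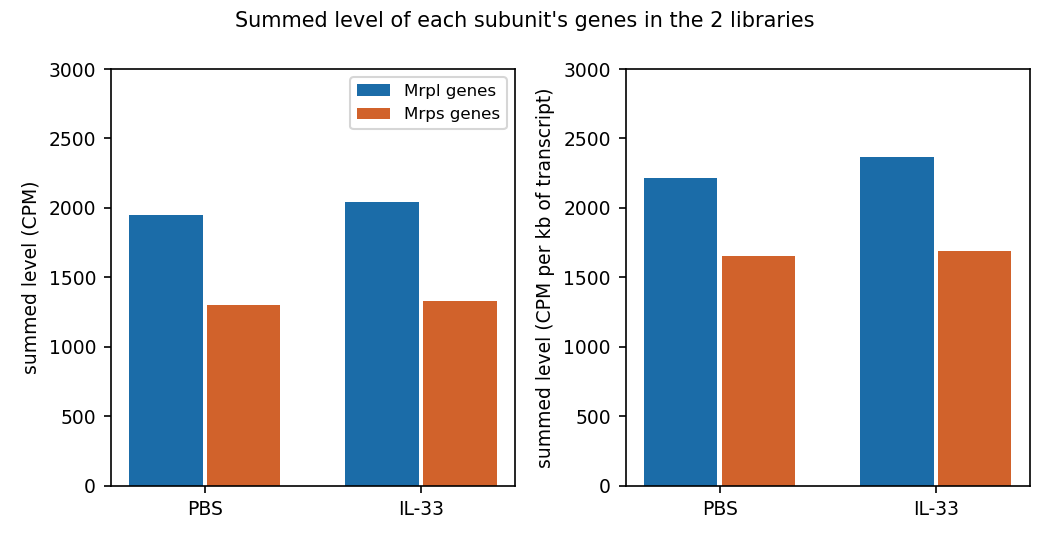
Summed level of the 47 Mrpl genes and the 29 Mrps genes in each library, in CPM (left) and in CPM per kilobase of transcript (right). Bars of the same colour differ little between PBS and IL-33, and the Mrpl bar, which sums more genes, is the taller in both libraries.

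Symbols do not always name the subunit a protein sits in. Mrps30 and Mrps18a carry small subunit names but belong to the large subunit of the assembled particle, and Mrps36 is now known as a component of the oxoglutarate dehydrogenase complex. Assigned by place, the large subunit had 47 compared genes with a median of 0.06 and the small subunit 25 with a median of -0.08. Summed levels had ratios of 1.05 (1.01 to 1.10) and 1.03 (0.975 to 1.09). Mrps36 itself had 289 and 135 counts, 70.8 against 85.8 CPM.

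Within each library, the levels of the members differed far more than the libraries did. Lengths are those of the median coding transcript of a gene, and the order below can change with that choice. For Mrps14 this length was 787 nt, and that of the longest coding transcript was 2999 nt. Compared per length, on CPM per kilobase of transcript, Mrpl33 stood first at 559 and 542. This gene encodes a short relative of a bacterial large subunit protein. Mrps21, at 384 and 358 CPM per kilobase, and Mrps18c, at 353 and 332, followed in both libraries, and Mrps33 was next at 257 and 267. Mrpl42 was at 232 against 143 CPM per kilobase, and Mrps14, a protein of the small subunit head, at 224 against 182. The large subunit genes Mrpl20 (196 and 141), Mrpl21 (142 and 98.2), Mrpl23 (107 and 57.9), Mrpl18 (105 and 121) and Mrpl30 (73.7 and 114) came after these, with Mrps36 at 124 and 150. The middle values of all 76 ran from 8.17 to 48.0 CPM per kilobase in the IL-33 library and from 7.44 to 42.8 in the PBS library, with medians of 17.7 and 18.5. At the low end, Mrps2, Mrpl38 and Mrps27 were under 5 CPM per kilobase in both libraries, as was Mrpl2, which had 6 counts and 1. The summed level per kilobase, over 47 and 29 genes, gave a large to small subunit ratio of 1.40 for IL-33 and 1.34 for PBS. Across the 76 genes, which are not independent and share the 2 libraries, log2(CPM + 1) correlated between the libraries with Pearson r = 0.80 and Spearman rho = 0.81.

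The most abundant members barely moved. Mrpl33 had 1090 and 408 counts, or 267 against 259 CPM, which gave a ratio of 1.03 (95% counting interval 0.919 to 1.16; chromosome 5, 31596935 to 31664384 on mm10). Mrps18c had 918 and 333 counts, or 225 against 212 CPM (ratio 1.06, 0.937 to 1.21; chromosome 5, 100798627 to 100804471). Mrps33 was at 184 and 191 CPM (ratio 0.963, 0.842 to 1.10), and Mrps21 at 155 and 145 CPM (1.07, 0.920 to 1.25). For these 4 genes, which hold the highest counts of the particle with Mrps14, Mrpl18 and Mrpl42, the interval leaves room for a difference of at most 1.25-fold. Mrps14 was slightly higher at 176 against 144 CPM (1.23, 1.05 to 1.43). Of these 7, Mrpl42, a protein without a bacterial relative, lay farthest from 0. It had 626 and 149 counts, 153 against 94.7 CPM, a ratio of 1.62 (1.35 to 1.95).

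Promoter windows are shown for the abundant Mrpl33 and Mrps18c, for Mrps15 (the farthest above 0), for Mrps9 and Mrpl53 (the farthest below 0) and for Mrpl32 (the best counted of the 10 higher genes). All 6 were chosen with their values known, to show which carry the same short motifs. Of the 76 genes, 67 had a window in the RefSeq promoter table (build GRCm38.p6), from 250 bases before to 50 after the start, and the first window listed for each gene was searched on both strands. The letters CCGGAAG, bound by ETS factors such as GABP, were in 34.3% of the members' windows. They were in 9.12% of the windows of all 27025 genes in that table, and in 21.3% of those of the 6432 compared protein-coding genes. The form bound by NRF1, GCGCA followed by any base and GCGC, was in 17.9%, 4.78% and 11.8% of these sets, and the form bound by YY1, AA followed by any base and ATGGCGG, in 10.4%, 1.44% and 4.12%. These motifs were chosen because GABP, NRF1 and YY1 are known regulators of mitochondrial genes. A match is a description of the letters, not a binding site. Capitals mark the matches in the stretches printed here, each 200 bases before to 5 after the start, 5′ to 3′ on the strand of the gene.
Mrpl33 (chr5:31613751-31613955, plus strand): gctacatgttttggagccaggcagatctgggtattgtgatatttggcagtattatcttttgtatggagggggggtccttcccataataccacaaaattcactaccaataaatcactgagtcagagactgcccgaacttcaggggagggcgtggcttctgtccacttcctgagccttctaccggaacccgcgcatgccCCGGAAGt
Mrps18c (chr5:100798559-100798763, plus strand): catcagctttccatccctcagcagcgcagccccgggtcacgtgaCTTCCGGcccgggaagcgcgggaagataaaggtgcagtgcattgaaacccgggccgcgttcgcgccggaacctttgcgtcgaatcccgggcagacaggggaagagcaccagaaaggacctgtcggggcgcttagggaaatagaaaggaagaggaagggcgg
Mrps15 (chr4:126046728-126046932, plus strand): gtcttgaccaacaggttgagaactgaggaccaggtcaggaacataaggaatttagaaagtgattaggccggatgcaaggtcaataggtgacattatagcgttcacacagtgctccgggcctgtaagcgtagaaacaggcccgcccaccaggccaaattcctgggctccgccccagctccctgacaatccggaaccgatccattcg
Mrpl32 (chr13:14613033-14613237, minus strand): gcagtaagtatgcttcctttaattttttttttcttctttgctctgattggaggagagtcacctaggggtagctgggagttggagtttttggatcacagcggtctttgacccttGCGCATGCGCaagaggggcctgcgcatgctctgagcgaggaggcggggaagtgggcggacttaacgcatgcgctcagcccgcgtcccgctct
Mrps9 (chr1:42851033-42851237, plus strand): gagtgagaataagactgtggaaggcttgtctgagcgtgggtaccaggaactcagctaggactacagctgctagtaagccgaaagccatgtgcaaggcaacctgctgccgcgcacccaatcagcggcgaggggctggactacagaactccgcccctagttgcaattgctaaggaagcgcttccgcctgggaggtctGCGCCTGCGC
Mrpl53 (chr6:83108908-83109112, plus strand): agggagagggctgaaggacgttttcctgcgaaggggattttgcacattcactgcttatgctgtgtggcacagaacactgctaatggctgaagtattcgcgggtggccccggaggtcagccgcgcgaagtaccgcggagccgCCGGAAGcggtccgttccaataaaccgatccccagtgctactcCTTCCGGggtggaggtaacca
The ETS letters stand in the windows of the abundant Mrpl33 and Mrps18c and, in 2 places, in that of Mrpl53, which was lower in the IL-33 library. The NRF1 letters stand in the windows of Mrpl32, which was higher, and of Mrps9, which was lower, and Mrps15, the member farthest from 0, has no match. Over the compared members, the 35 with any of the 3 motifs had a median log2 fold of -0.01 and the 30 without had 0.06.

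The genes higher in the IL-33 library were led by Mrps15 and Mrps30. Mrps15, whose bacterial relative binds the central domain of the small subunit's RNA early in assembly, had 155 counts against 5. That is 38.0 against 3.18 CPM (ratio 11.95, 5.01 to 37.3; chromosome 4, 126046925 to 126055532). Mrps30 had 110 counts against 7, 27.0 against 4.45 CPM (ratio 6.06, 2.84 to 15.4; chromosome 13, 118378381 to 118387252). Of its 6666 exon bases, 623 are shared with B430218F22Rik on the other strand. For both genes the PBS value rests on few counts, and both were under the 5 CPM floor there. Mrpl16, whose bacterial relative lies beside the peptidyl transferase centre, had 110 counts against 13, 27.0 against 8.26 CPM (ratio 3.26, 1.83 to 6.32; chromosome 19, 11770391 to 11774960). Mrpl14, the protein that the assembly factor Malsu1 binds, and Mrps22, in which mutations cause a human respiratory chain deficiency, each had 47 counts against 5, 11.5 against 3.18 CPM, a ratio of 3.62 (1.45 to 11.7). Mrpl14 and Mrps22, and also Mrps10, were under the 5 CPM floor in the PBS library. Mrpl37 had 88 against 12 counts (ratio 2.83), and Mrps5, a protein at the mRNA entry, 116 against 17 (2.63). Mrps10 had 45 against 7 (2.48, 1.11 to 6.52), and Mrpl47, whose exons overlap those of Actl6a and Ndufb5 on the other strand, had 119 against 20 (2.29, 1.42 to 3.89). Mrpl32, a protein cut to its mature form by the m-AAA protease of the inner membrane, was the best counted of the 10. It had 215 and 39 counts, 52.7 against 24.8 CPM (ratio 2.13, 1.51 to 3.07; chromosome 13, 14608184 to 14613165).

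The genes lower in the IL-33 library were led by Mrps9. This protein of the small subunit head, whose bacterial relative reaches the transfer RNA in the P site, had 16 counts against 54. Its levels were 3.92 against 34.3 CPM (ratio 0.114, 0.0610 to 0.203; chromosome 1, 42851233 to 42905683). Mrpl53 had 12 counts against 30, 2.94 against 19.1 CPM (ratio 0.154, 0.0719 to 0.310; chromosome 6, 83109040 to 83109939). Of its 790 exon bases, 695 are shared with Gm42688, a gene model on the same strand. Both intervals lay below 1, but both genes were under the 5 CPM floor in the IL-33 library and were compared only through their PBS level. Mrpl34 had 3 counts against 11 (0.105, 0.0188 to 0.398) and Mrps2 had 6 against 11 (0.210, 0.0639 to 0.621), so both rest on very few counts and passed the floor in the PBS library alone. Mrpl3, another neighbour of the peptidyl transferase centre, in which mutations cause a human cardiomyopathy, was better counted, with 58 against 62. Its levels were 14.2 against 39.4 CPM (ratio 0.361, 0.248 to 0.525; chromosome 9, 105053239 to 105079888). Mrpl51 had 79 against 68 counts, 19.4 against 43.2 CPM (ratio 0.448, 0.320 to 0.629; chromosome 6, 125191801 to 125196269). Mrps18a had 28 against 24 counts, a ratio of 0.450 (0.251 to 0.811). Mrpl55 at 0.494 and Mrps11 at 0.463 were also under 0.5 by the plain ratio, but not with the pseudocount.

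**Figure D3:**
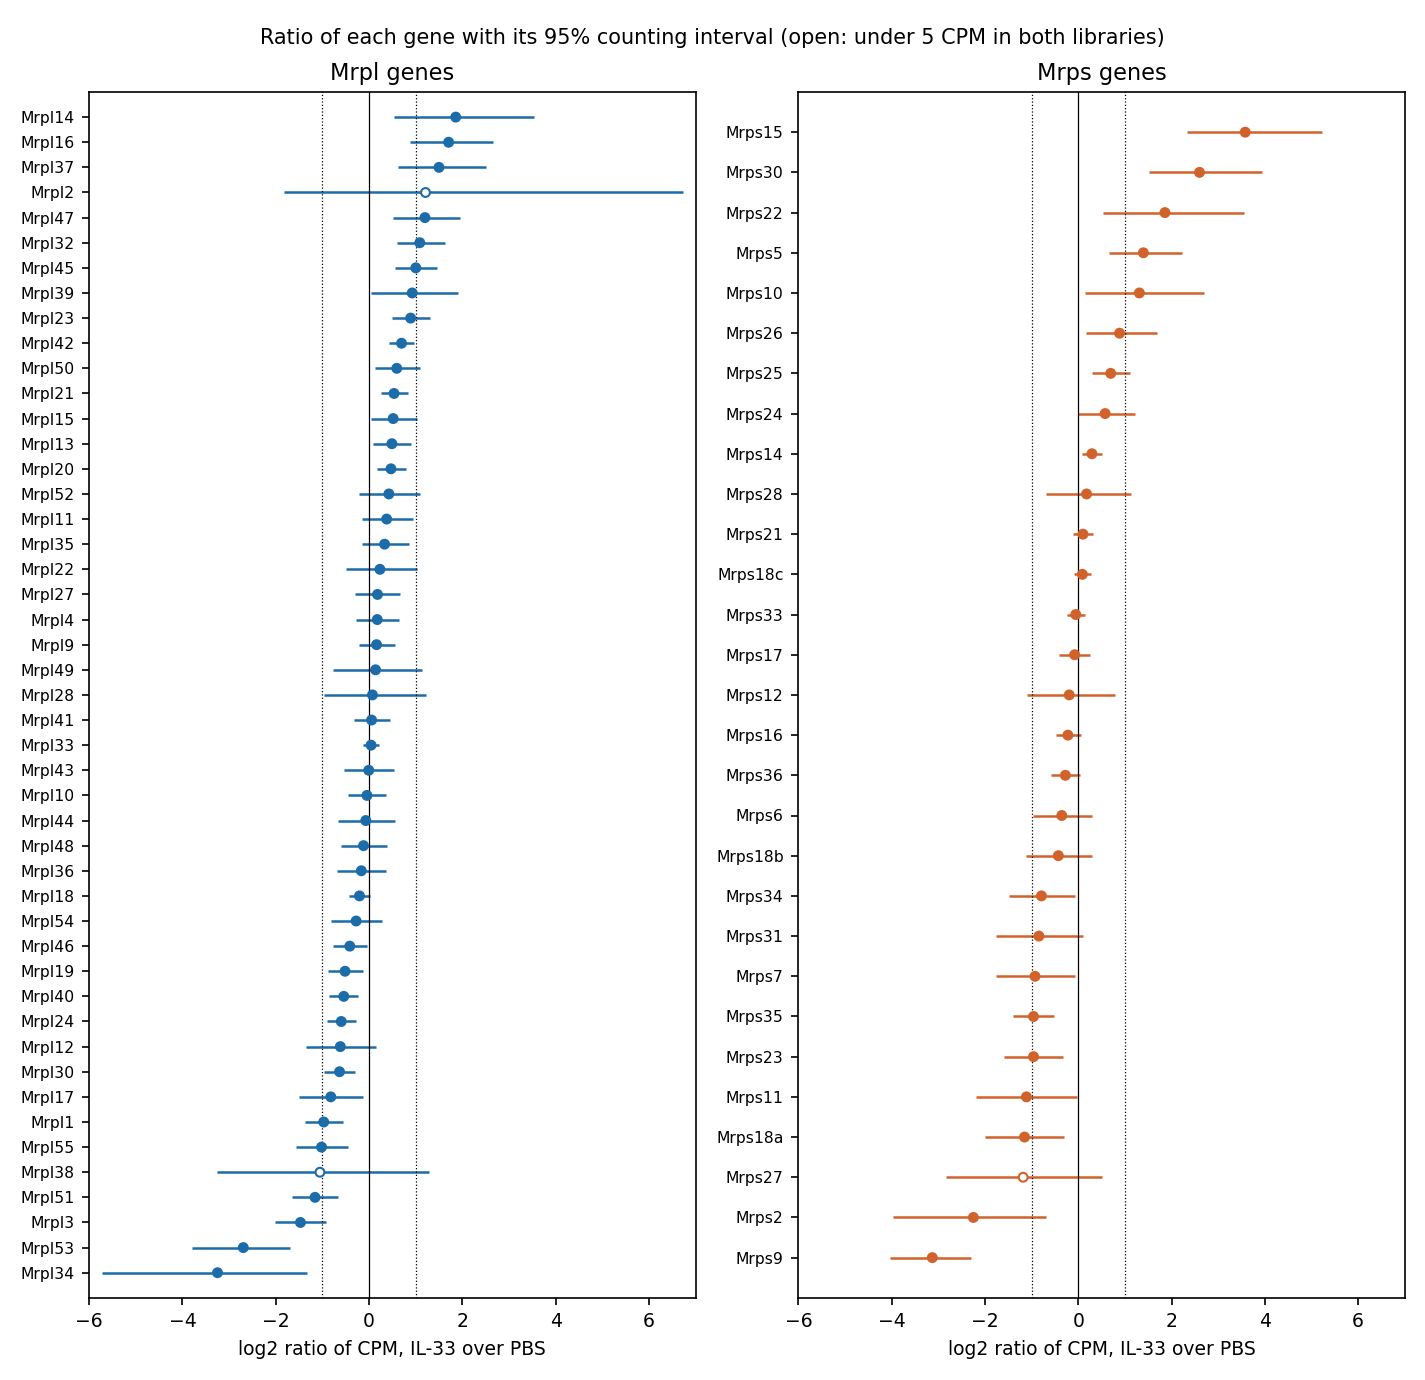
Log2 ratio of CPM, IL-33 over PBS with no pseudocount, for the 47 Mrpl and 29 Mrps genes in order of the ratio; lines are 95% counting intervals, dotted lines mark 2-fold, and open points are under 5 CPM in both libraries. Most genes of both panels lie between the 2-fold lines, with a few apart at the ends such as Mrps15 and Mrps9, and the narrow intervals of Mrpl33, Mrps18c and Mrps21 hold 0.

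Sorted by role, most groups of the large subunit held genes on both sides of 0. The stalk that recruits translation factors is built of Mrpl10, at 45.6 and 47.0 CPM, Mrpl11, at 31.4 and 24.1 CPM, and Mrpl12, at 10.8 and 16.5 CPM, and all of their intervals held 1. Mrpl1, of the mobile stalk beside the exit site of transfer RNA, stood at 29.2 against 57.2 CPM (ratio 0.510, 0.385 to 0.678). Around the peptidyl transferase centre, Mrpl16 was higher and Mrpl3 lower, as given above, whereas Mrpl4, at 40.2 and 35.6 CPM, and Mrpl27, at 36.02 and 31.8 CPM, had intervals that held 1. Genes of the exit tunnel, through which the new protein leaves, split, with a summed ratio of 1.22 (1.07 to 1.38). Mrpl45, which holds the ribosome at the inner membrane, had 265 counts against 51, 64.9 against 32.4 CPM (ratio 2.00, 1.48 to 2.76; chromosome 11, 97315716 to 97329920), and a log2 fold of 0.98, just under the 2-fold line. Mrpl23 was at 74.3 against 40.0 CPM (ratio 1.85, 1.41 to 2.47). Its neighbours at the tunnel went the other way: Mrpl24 was at 60.5 against 91.5 CPM (0.661, 0.536 to 0.818) and Mrpl17 at 11.5 against 20.3 CPM (0.566, 0.354 to 0.917), while Mrpl22 was at 15.7 and 13.3 CPM.

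In the central protuberance, the crown of the large subunit, all 5 compared members lay below 0. Their median was -0.41, none reached 2-fold, and their summed levels were 279 against 361 CPM (ratio 0.773, 0.699 to 0.857). Mrpl55 was at 15.7 against 31.8 CPM (ratio 0.494, 0.336 to 0.730), and Mrpl40 at 59.8 against 87.1 CPM (0.687, 0.555 to 0.853). Mrpl46 had 45.3 against 60.4 CPM (0.751, 0.583 to 0.972). For Mrpl18, a relative of a bacterial protein of this crown, the levels were 128 and 148 CPM (0.867, 0.742 to 1.02), and for Mrpl48 they were 28.7 and 31.1 CPM (0.921, 0.654 to 1.31), so both intervals held 1. Mrpl38 had 5 and 4 counts and was not compared. Under TMM scaling these folds move up by up to 0.12, which is as much as the distance of Mrpl48 from 0. The group is small, and 36 of all 73 compared members lay below 0, as did 4900 of all 9005 compared genes. Ict1, described below, also belongs to this crown, but its symbol in the counts does not start with Mrpl. It was left out of the group and went the other way, with 34 counts against 0.

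**Figure D4:**
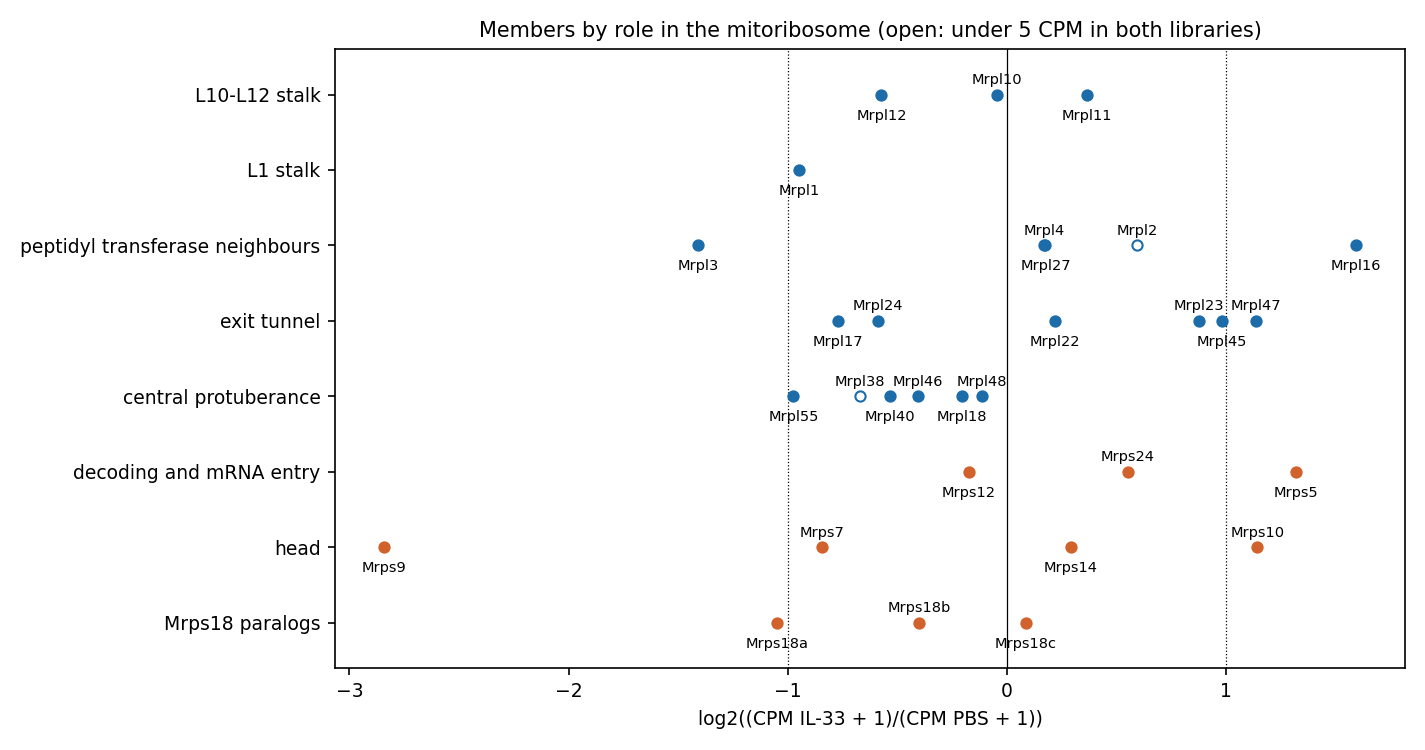
Log2 fold of IL-33 over PBS (CPM plus 1) for the members of 8 groups by role or family, from the L10-L12 stalk to the Mrps18 paralogs; dotted lines mark 2-fold and open points are genes under 5 CPM in both libraries. Members of the peptidyl transferase, exit tunnel and head groups fall on both sides of 0, and those of the central protuberance lie between -0.97 and -0.12.

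The other 26 large subunit genes, in no group here, had a median of 0.14, with 3 higher and 3 lower at 2-fold. Among those within 2-fold, intervals above 1 were found for Mrpl21 (114 against 78.8 CPM, 1.45), Mrpl20 (96.8 against 69.9 CPM, 1.38), Mrpl13 (59.8 against 42.6 CPM, 1.40) and Mrpl15 (40.9 against 28.6 CPM, 1.43), all relatives of bacterial proteins. The same held for Mrpl50 (45.1 against 29.9 CPM, 1.51), Mrpl39 (15.7 against 8.26 CPM, 1.90) and Mrpl42, which have none. Intervals below 1 were found for Mrpl30 (48.8 against 75.6 CPM, 0.645) and Mrpl19 (40.9 against 58.5 CPM, 0.700). The intervals of Mrpl9, Mrpl28, Mrpl33, Mrpl35, Mrpl36, Mrpl41, Mrpl43, Mrpl44, Mrpl49, Mrpl52 and Mrpl54 held 1, with ratios from 0.825 for Mrpl54 to 1.34 for Mrpl52. Mrpl44, in which mutations cause a human cardiomyopathy, was at 20.6 and 21.6 CPM.

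The median compared small subunit gene had a mean level of 18.7 CPM, against 32.3 CPM for the large subunit, and the small subunit folds were wider in spread. This did not hold at a mean of 50 CPM or more. There the middle values ran from -0.11 to 0.15 for 8 small subunit genes and from -0.41 to 0.48 for 13 large subunit genes. In the head, Mrps10 and Mrps14 were on the higher side and Mrps9 and Mrps7 on the lower, Mrps7 at 7.35 against 14.0 CPM (0.526, 0.293 to 0.957). Of the genes for decoding and mRNA entry, Mrps12, whose bacterial relative checks the match of codon and anticodon, was at 8.33 and 9.53 CPM (0.874, 0.463 to 1.73). Mrps24 was at 28.4 against 19.1 CPM (1.49, 0.991 to 2.31), and Mrps5 was higher. The Mrps18 paralogs, related genes whose products sit in different places, were at very different levels. Per kilobase, Mrps18c was at 353 and 332 CPM, Mrps18b at 16.5 and 22.2, and Mrps18a, the large subunit protein, at 11.0 and 24.6. Mrps18b had 54 and 28 counts, a ratio of 0.744 (0.463 to 1.22).

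The remaining 19 small subunit genes included 18 compared ones, with a median of -0.15, 3 higher and 1 lower. Mrps25 (66.9 against 41.3 CPM, 1.62, 1.23 to 2.16), which shares 4590 of 6576 exon bases with Nr2c2 on the other strand, and Mrps26 (22.3 against 12.1 CPM, 1.85, 1.12 to 3.21) lay above 1 within 2-fold. Mrps35 (25.5 against 49.6 CPM, 0.514, 0.380 to 0.699) and Mrps23 (12.7 against 24.8 CPM, 0.514, 0.333 to 0.800) lay below it, as did Mrps34 (11.0 against 19.1 CPM, 0.578) and Mrps11 (4.41 against 9.53 CPM, 0.463). Of its 2064 exon bases, Mrps34 shares 763 with Nme3 on the same strand and 1309 with Mapk8ip3 on the other. Mrps11 shares 173 of 2172 with Mrpl46 on the other strand. The intervals of Mrps6, Mrps16, Mrps17, Mrps21, Mrps28, Mrps31, Mrps33 and Mrps36 held 1, with ratios from 0.557 for Mrps31 to 1.13 for Mrps28. Mrps16, in which mutations cause a human respiratory chain deficiency, was at 92.6 and 108 CPM (0.857, 0.714 to 1.03). Mrps27 had 8 and 7 counts.

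By origin, the 45 compared proteins with a bacterial relative had a median of 0.09, with 7 higher and 4 lower, and the 27 without had a median of -0.05, with 3 higher and 3 lower. Summed levels had ratios of 1.05 (1.01 to 1.09) and 1.04 (0.981 to 1.10). The members' transcripts are short, with a median of 1056 nt over the compared members against 2499 nt over all compared genes, and across 8914 compared genes the log2 fold and the log2 length had Spearman rho = -0.09. The 731 other genes within the middle range of the members' length and level had a median log2 fold of 0.04, the same to 2 decimals as the members, with 16.3% higher and 16.0% lower at 2-fold. Exon bases shared with another protein-coding gene, which the counting may have split, touched 23 members. Without these, 7 of 50 were higher, 6 lower, and the median was 0.06.

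Genes that work with the mitochondrial ribosome gave a mixed picture. Of the 7 genes for ribosomal proteins that carry other names, 6 were within 2-fold and below 0, where 4900 of all 9005 compared genes lay below 0. The interval of each of these 6 held 1. Dap3 (a GTP-binding small subunit protein) was at 74.0 and 86.4 CPM, Aurkaip1 at 53.4 and 64.2 CPM and Ptcd3 at 32.1 and 35.6 CPM. The remaining gene of the 7, Ict1, a large subunit protein that rescues stalled ribosomes, had 34 counts against 0. The lower end of its 95% counting interval was a ratio of 3.37. Ict1 is named here because of its value. The 19 compared genes of assembly and ribosomal RNA modification had a median of 0.29, with 7 higher and 4 lower, several of them with 0 to 3 counts in a library. These are 36.8% and 21.1%, on a list whose median level was 9.28 CPM. Among all compared genes under a mean of 20 CPM, 29.5% were higher and 27.2% lower. Eral1, a chaperone of the small subunit RNA, had 93 counts against 1, a ratio of 35.9 (6.28 to 1432). Rpusd4, a pseudouridine synthase of the large subunit RNA, had 88 against 1, a ratio of 33.9 (5.93 to 1355), and Mettl15, an RNA methyltransferase, had 1 against 37, a ratio of 0.0104 (0.000257 to 0.0618).

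The 16 compared translation factors and mRNA-handling genes had a median of 0.00, with 3 higher and 0 lower. Beside the counts of this and the next lists stand 15.5% higher and 16.3% lower over all compared genes. Under a mean of 20 CPM those shares were 29.5% and 27.2%. The elongation factor genes Tufm and Gfm1 differed little, at 54.2 and 55.9 CPM and at 31.4 and 35.6 CPM (both chosen after their values were seen). Guf1, a GTPase of elongation, was higher at 24.015 against 5.08 CPM (ratio 4.72, 2.31 to 11.2). The RNA-stabilizing partner gene Slirp, listed under an older symbol, was at 62.7 against 38.8 CPM (1.62, 1.22 to 2.18), and Mtfmt, which formylates the initiator, at 20.8 against 12.7 CPM. The 13 mitochondrial aminoacyl-tRNA synthetases, which charge transfer RNAs, had a median of 0.62, with 4 higher and 2 lower. Lars2, at 1.61, and Rars2, at 1.57, were within 2-fold. The 8 genes of mitochondrial DNA upkeep and transcription had a median of 0.24, with 1 higher and 1 lower. Polg, the mitochondrial DNA polymerase, was at 35.0 against 103 CPM (0.340, 0.270 to 0.429), Tfb2m at 0.527 and Polg2 at 0.614. The 7 nuclear regulators had a median of 0.43, with 3 higher and 0 lower. Of these 7, 4 lay above 0 and 3 below. Gabpa, the DNA-binding chain of GABP, was at 93.9 against 45.8 CPM (2.05, 1.59 to 2.68), Gabpb1 at 130 against 96.0 CPM (1.35, 1.13 to 1.63) and Myc at 46.1 against 19.7 CPM (2.34, 1.59 to 3.54). The genes of the other 2 factors whose motifs were searched did not rise. Nrf1 was at 54.2 against 72.4 CPM (0.748, 0.594 to 0.946) and Yy1 at 134 and 139 CPM (0.961, 0.820 to 1.13).

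In the families most like them, medians were higher than in the members. For the 78 compared genes of cytosolic ribosomal proteins the median was 0.21, with 4 higher and 2 lower, and summed to 75232 against 64051 CPM, a ratio of 1.17 (1.17 to 1.18). The 36 compared complex I subunit genes, some of whose partners in the complex are made by mitochondrial ribosomes, had a median of 0.26, with 8 higher and 1 lower, and a summed ratio of 1.22 (1.18 to 1.26). The members' own summed ratio was 1.04 (1.01 to 1.07). These lists differ in level and transcript length, and the difference between them was not tested. At 2-fold or more, 5.13% of the cytosolic genes were higher and 2.56% lower, and 22.2% and 2.78% of the complex I genes. The shares were 15.5% and 16.3% over all compared genes, and 3.53% and 4.96% at a mean of 50 CPM or more. The cytosolic list was taken by symbols that start with Rpl or Rps, so its counts, median and sums leave out Fau. That gene also encodes a cytosolic ribosomal protein and was at 7805 against 726 CPM, a ratio of 10.8. Within the list, Rps24 (3.19), Rpl22l1 (2.83) and Rpl35a (0.350) were farthest from 0 by log2 fold among genes with 20 CPM or more in a library. Those of complex I were Ndufa2 (2.86), Ndufs7 (2.60) and Ndufb6 (0.386).

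**Figure D5:**
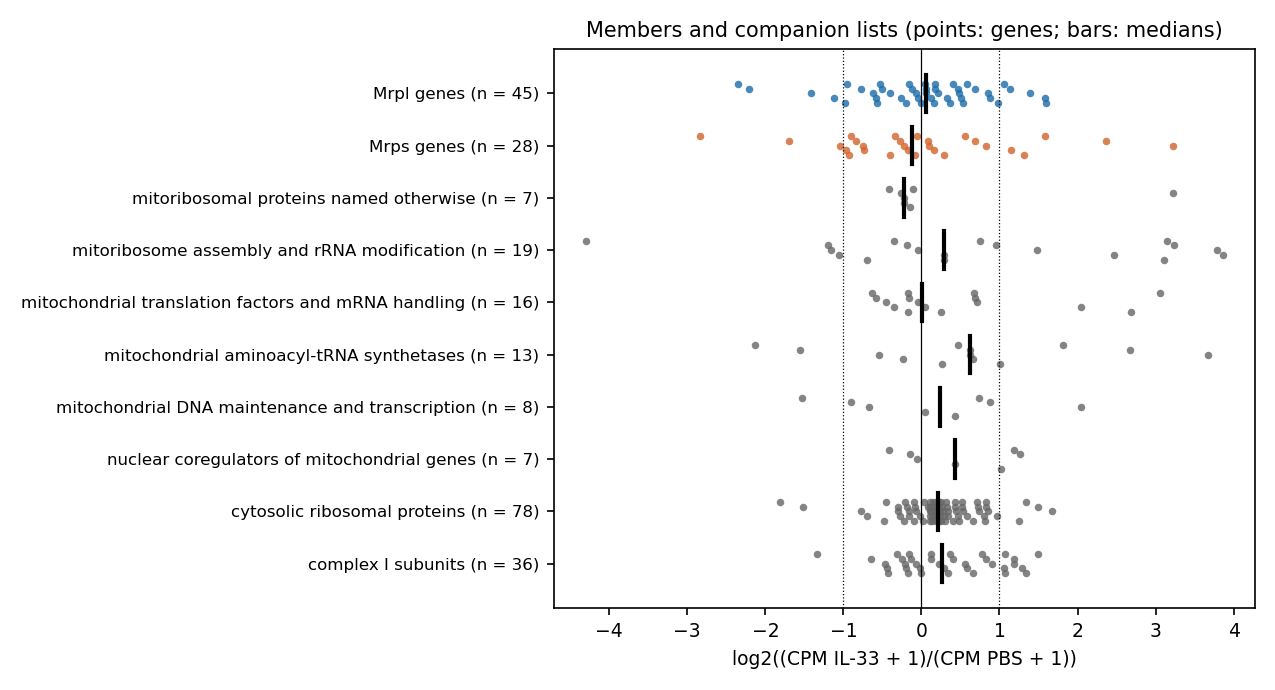
Log2 fold of IL-33 over PBS (CPM plus 1) for each compared gene of the Mrpl and Mrps sets and of 8 companion lists; points are genes, black bars are medians and dotted lines mark 2-fold. The Mrpl and Mrps medians lie at 0.06 and -0.13, and those of cytosolic ribosomal proteins and complex I at 0.21 and 0.26.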

How the data were processed

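The authors deposited a table of raw counts for 23337 gene symbols, with 1 column for each of the 2 libraries. Per the labels' protocols, poly(A) RNA was converted to cDNA, amplified, fragmented with a transposon and sequenced as paired reads of 25 bp, and no molecular identifiers are named. Per the submitters' processing notes, TopHat2 2.0.10, Cufflinks 2.2.1 and the mm10 genome were used. Of the counting program, annotation and strand setting the sources used here say nothing. CPM, exact conditional (Clopper-Pearson) 95% intervals of CPM ratios, and log2 folds on CPM plus 1 were computed from the counts. Genes with at least 5 CPM in 1 library were compared, and 2-fold or more counted as different. Positions and lengths (median coding transcript of a gene) came from GENCODE M21 on GRCm38, where 20929 symbols matched, 1903 matched by an older name and 505 did not.

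The members, the companion and marker lists and the role groups were chosen with earlier results of these data known. Genes named in full are members at 2-fold, the farthest and the most abundant members of each subunit, members of fixed role groups and the 3 genes of each companion list farthest from 0 at 20 CPM or more. One gene of these lists is not reported here. Alternatives were 3 other scalings (edgeR 4.0.16), pseudocounts of 0.5 and 5, no floor or 20 CPM, a 1.5-fold limit, subunits by place, levels per kilobase and a background of like length. The computation was tested on simulated data. Python 3.11.15, scipy 1.17.1 and R 4.3.3 were used.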

Additional observations from a re-analysis of the deposited data

How the results depend on the processing

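Depth limits these values: 20 of the 73 compared members had under 20 counts in a library. With these left out, an alternative chosen after seeing the data, the median over members was -0.053, and 2 members were higher and 3 lower at 2-fold. A floor of 20 CPM gave a small subunit median of 0.088, a large minus small difference of -0.035 and 3 members lower, and a pseudocount of 5 gave 4 lower. At 1.5-fold, 16 were higher and 18 lower. The summed ratios of the large and small subunit became 1.14 and 1.12 by TMM, 1.13 and 1.11 by the median of ratios, and 1.12 and 1.10 by the upper quartile, since each scaling lowers the IL-33 total against the PBS total. Per kilobase, the large to small ratio was 1.40 in place of 1.53 for IL-33 and 1.34 for PBS. Against other genes of like length and level, the members' median lay higher by 0.005 in place of 0.12. No paired analysis was possible because each group holds 1 library, and for the same reason no replicate could be left out.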

Other observations

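Many members share a start region with another gene. For 22 of the 76, a protein-coding gene on the opposite strand starts within 1000 bp upstream or overlaps the start by up to 200 bp. In 15 of these pairs both genes were compared, and the fold lay on the same side of 0 in 7 and on opposite sides in 8. Mrpl32 and its neighbour Psma2, a proteasome subunit gene whose start lies 75 bp away, were both on the higher side, Psma2 at 639 against 444 CPM (1.44). Mrpl36 and the complex I gene Ndufs6, whose starts overlap, were both near 0, Ndufs6 at 59.3 and 66.1 CPM. By contrast, Mrps18c stood at 225 and 212 CPM while Helq, a DNA helicase gene 29 bp away, had 20 counts against 40, a ratio of 0.193. Mrpl49 had 40 and 14 counts while Fau, 59 bp away, had 31849 against 1142, a ratio of 10.8. Mrps12 had 34 and 15 counts while Sars2, 172 bp away, had 48 against 0. These pairs were chosen after their values were seen.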
